A study of Lotus japonicus with 18 samples.

Results

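The gene table of this RNA-seq series of Lotus japonicus, a model legume, names 3 of its 33994 entries as chloroplast ferritins, and all 3 are described here in every group. They were chosen by that name: LotjaGi3g1v0197600 and LotjaGi6g1v0079000 are both described as Ferritin-3, and LotjaGi1g1v0074300 as Ferritin-2. The descriptions are by similarity, and the same 3 entries were the only ones that carried the Pfam family of ferritins. Shoots of 34-day-old plants were harvested 4 hours into the light period. The plants were Lmyb36-1, Lmyb36-2 and WT, and each genotype was grown on Hornum nutrient solution with NaCl (salt) or without it (control). Salt plants reached 100 mM NaCl in steps of 50 mM, 4 days apart, and spent about 2 days at that level. Lmyb36-1 and Lmyb36-2 are 2 mutant lines that the series describes as knockouts of LjMYB36. There were 3 libraries, called biological replicates in the labels, for each of 6 groups. Nothing says whether these came from separate pots or pools, so p-values measure the spread between these samples, which may be technical.

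Ferritins assemble into hollow protein shells that store iron in a form that does not take part in redox chemistry. Plant ferritins are encoded in the nucleus and work mainly in chloroplasts and other plastids. In Arabidopsis their transcripts are known to accumulate under iron excess and to be low under iron deficiency, and the proteins limit oxidative damage that free iron can cause. In legumes, ferritin is also known as an iron store of seeds and nodules. MYB36 is a transcription factor known in Arabidopsis roots for building the Casparian strip, the barrier of the endodermis that controls which solutes reach the shoot.

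The 3 genes lie on different chromosomes in the deposited table's coordinates, whose genome build is not named. LotjaGi3g1v0197600 is on chromosome 3 (28953939 to 28957552, minus strand), LotjaGi6g1v0079000 on chromosome 6 (15020549 to 15023794, plus strand) and LotjaGi1g1v0074300 on chromosome 1 (10735477 to 10739089, plus strand). Their lengths in the table are 1857, 1737 and 1880 bases in that order. No other entry of the table overlapped any of them. How reads shared by near-identical stretches of related genes were counted is not stated, so some reads may be split between the 3 genes.

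Levels are FPKM (fragments per kilobase of gene and per unit of library depth), a unit per length in which the 3 genes can be set side by side. The libraries held between 42125949 and 101713201 reads assigned to genes, and the ferritin genes drew between 4740 and 191858 reads each in a library. That is a counting error of 0.268% to 1.4% by group against a coefficient of variation between replicates of 2.05% to 24.5%. The 20 genes of the shoot list (chlorophyll a-b binding proteins and the small subunit of Rubisco) summed to between 46730 and 70970 FPKM, and none was at 0 in all libraries. The sum ran from 49760 to 68120 FPKM with salt and from 46930 to 62190 FPKM in control plants of Lmyb36-1. It ran from 49280 to 58710 FPKM with salt and from 46730 to 52220 FPKM in control plants of Lmyb36-2, and from 60040 to 70970 FPKM with salt and from 50310 to 66460 FPKM in control plants of WT. Of the 20 genes, 3 were lower in Lmyb36-2 than in WT with salt (list median -0.29, beside 0.00 over all genes). In control plants 1 was lower in Lmyb36-2 than in WT (median -0.19, beside -0.01). These are 15% and 5% of the list, below the 25.1% and 12.6% of all genes called there. Between Lmyb36-1 and WT 0 were called with salt or in control plants, beside 16.0% and 11.7% of all genes. The part of the shoot genes in the ferritin results was not tested. Leghemoglobins, which mark nodules, did not exceed 0.257 FPKM in any library, and no seed storage protein exceeded 2.92 FPKM. The table describes 5 genes as MYB36, without a label that tells which was mutated. All 5 were above 0 in all 18 libraries, between 0.0289 and 6.6 FPKM, so the genotype labels could not be checked on the targeted gene. Within groups, the first principal component (30.8% of the variance) parted the libraries of the table's first 10 columns from those of its last 8, with 1 or 2 of the 8 in every group. What the column order stands for is not stated, and the values within each of these sets are given beside the results. In shoot tissue, fewer cells of a type and less RNA per cell cannot be told apart.

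Differences are log2 values from limma on log2(FPKM + 0.5), and a gene is called where the Benjamini-Hochberg adjusted p over all 20433 tested genes is under 0.05. All 3 ferritin genes passed the filter on low values. Statements that libraries do or do not overlap describe 3 libraries against 3 and are no test. The share of all genes whose groups do not overlap was not counted. With salt, 3 of 3 ferritin genes fell in Lmyb36-1, where 8.61% of all tested genes were called in either direction. In Lmyb36-2, 2 of 3 fell with salt (8.66% of all genes called), and in WT 1 of 3 fell (16.3% called). No ferritin gene rose with salt in any genotype. In control plants 1 of 3 was higher in Lmyb36-1 than in WT (11.7% called), and 1 of 3 was higher in Lmyb36-2 than in WT (12.6% called). With salt, 0 of 3 differed between Lmyb36-1 and WT by this test (16.0% called), while between Lmyb36-2 and WT 1 was higher and 1 lower (25.1% called). The 2 lines share the WT libraries as their reference, so their comparisons with WT are not independent of each other.

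LotjaGi3g1v0197600 showed the largest differences of the 3. In Lmyb36-1 it had 98.7, 163 and 140.2 FPKM with salt, against 931, 996 and 991 FPKM in control plants. In Lmyb36-2 it had 100.5, 126 and 150.1 FPKM with salt, against 963, 876 and 1073 FPKM in control plants. In WT it had 191, 185 and 125 FPKM with salt, against 164, 231 and 228 FPKM in control plants. The 6 control libraries of the lines stood far above the other 12, and the salt and control libraries of WT overlapped. In the control libraries of the lines the gene ranked between 41 and 52 among all entries by FPKM, against ranks of 260 to 365 in WT control libraries, and it ranked between 327 and 832 in the salt libraries of all genotypes.

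**Figure D1:**
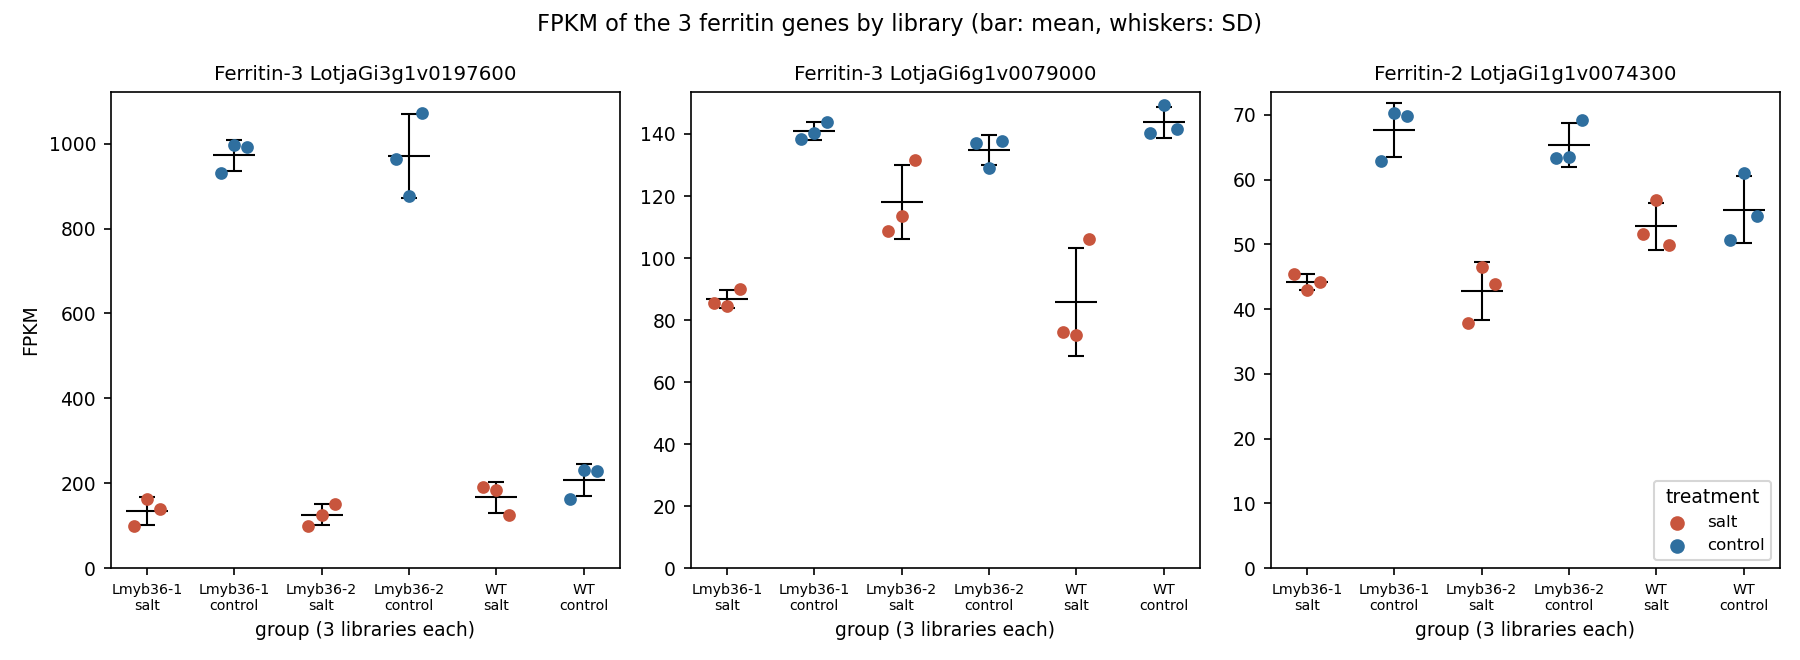
FPKM of each ferritin gene (vertical axis, from 0, a separate scale for each gene) in the 3 libraries of each group (points), with the group mean (bar) and SD (whiskers). For LotjaGi3g1v0197600 the control libraries of Lmyb36-1 and Lmyb36-2 lie between 876 and 1073 FPKM, and all other libraries between 98.7 and 231 FPKM.

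By group, LotjaGi3g1v0197600 averaged 134 ± 32.8 FPKM with salt and 973 ± 36.5 FPKM in control plants of Lmyb36-1 (SD, n = 3 in every group). The averages were 125 ± 24.8 FPKM with salt and 971 ± 98.4 FPKM in control plants of Lmyb36-2, and 167 ± 36.4 FPKM with salt and 208 ± 37.9 FPKM in control plants of WT. Salt lowered it by a log2 difference of -2.88 in Lmyb36-1 (SE 0.20, limma adjusted p = 2.54e-07), to 0.135 of the control level. In Lmyb36-2 the log2 difference was -2.96 (SE 0.20, limma adjusted p = 6.96e-07), or 0.128 of the control level. Only 8 of the 20433 tested genes fell more with salt in Lmyb36-1, and 0 fell more in Lmyb36-2. In WT the log2 difference was -0.32 (95% confidence interval -0.74 to 0.10, limma adjusted p = 0.34), which is not past the threshold. It was -0.13 without WT salt replicate 3, and -0.48 to -0.13 over the libraries left out in turn.

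The salt effect on LotjaGi3g1v0197600 itself differed between each line and WT. The salt effect in Lmyb36-1 minus that in WT was -2.56 on the log2 scale (limma adjusted p = 2.76e-05), and 0 of the 20433 genes had a lower value. For Lmyb36-2 minus WT it was -2.64 (limma adjusted p = 1.43e-05), and 2 genes had a lower value. In these tests 2 of the 3 ferritin genes were lower for Lmyb36-1 (4.27% of all genes called), while for Lmyb36-2 2 were lower and 1 higher (8.61% called). Within the libraries of the first columns and within those of the last columns, the salt effect was -2.73 and -2.96 in Lmyb36-1, -2.90 and -3.09 in Lmyb36-2, and -0.35 and -0.27 in WT. These values rest on 1 or 2 libraries a group and carry no test.

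Without NaCl, LotjaGi3g1v0197600 was higher in Lmyb36-1 than in WT by a log2 difference of 2.24 (limma adjusted p = 1.08e-06), which is 4.73-fold. It was higher in Lmyb36-2 than in WT by 2.23 (limma adjusted p = 8.54e-07), which is 4.71-fold. Within the first and the last columns these differences were 2.26 and 2.10 for Lmyb36-1 and 2.24 and 2.22 for Lmyb36-2. With salt the difference from WT was -0.32 in Lmyb36-1 (95% confidence interval -0.74 to 0.10, limma adjusted p = 0.31) and -0.41 in Lmyb36-2 (-0.83 to 0.02, limma adjusted p = 0.15). For Lmyb36-1 it moved between -0.52 and -0.12 when 1 library was left out, with the smallest difference without Lmyb36-1 salt replicate 1. Without WT salt replicate 3, the lowest of its group, the difference for Lmyb36-2 passed the threshold (-0.60, limma adjusted p = 0.0469).

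Ordered by mean, LotjaGi3g1v0197600 was highest in Lmyb36-1 control, followed by Lmyb36-2 control, WT control, WT salt, Lmyb36-1 salt and Lmyb36-2 salt. The only neighbours in that order whose libraries did not overlap were Lmyb36-2 control and WT control. Replicates spread more at low levels: the coefficient of variation was 24.5%, 19.8% and 21.8% in the salt groups of Lmyb36-1, Lmyb36-2 and WT, against 3.76%, 10.1% and 18.3% in their control groups.

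**Figure D2:**
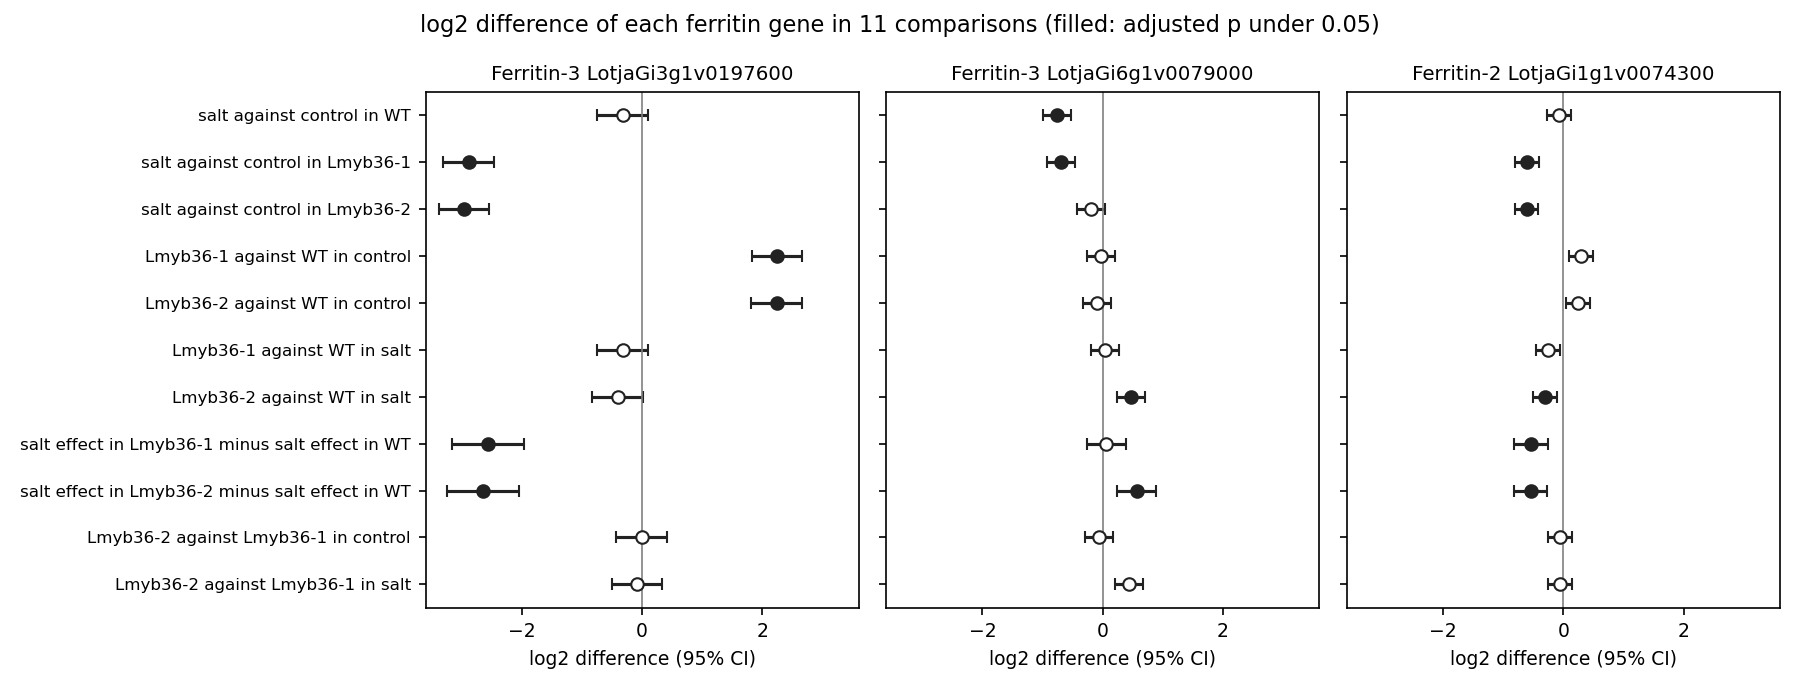
Log2 difference of each ferritin gene (horizontal axis, with 95% confidence intervals) in the 11 comparisons listed on the vertical axis, where the group named first is the one on top of the ratio. Filled points have a limma adjusted p under 0.05. LotjaGi3g1v0197600 reaches -2.96 with salt in Lmyb36-2 and 2.24 for Lmyb36-1 against WT in control, while all values of the other 2 genes lie between -0.76 and 0.56.

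LotjaGi6g1v0079000, the second gene described as Ferritin-3, fell with salt in WT and in Lmyb36-1. In WT it had 76.3, 75.3 and 106 FPKM with salt, against 140.3, 149 and 142 FPKM in control plants. Lmyb36-1 had 85.5, 84.6 and 90.0 FPKM with salt, against 138, 140.3 and 144 FPKM in control plants. In Lmyb36-2 the values were 109, 114 and 132 FPKM with salt, against 137, 129 and 138 FPKM in control plants. Salt and control libraries did not overlap in WT or in Lmyb36-1, and they did in Lmyb36-2. The log2 difference was -0.76 in WT (limma adjusted p = 7.55e-05) and -0.70 in Lmyb36-1 (limma adjusted p = 0.000601). In Lmyb36-2 it was -0.19 (95% confidence interval -0.43 to 0.04, limma adjusted p = 0.29). Within the first and the last columns the salt effect was -0.65 and -0.97 in WT, -0.62 and -0.74 in Lmyb36-1, and -0.15 and -0.28 in Lmyb36-2.

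The salt effect on LotjaGi6g1v0079000 in Lmyb36-2 minus that in WT was 0.56 (limma adjusted p = 0.031). That call was lost when any of 8 of the 12 libraries was left out, with adjusted p up to 0.0907 without WT salt replicate 2. In Lmyb36-1 minus WT the value was 0.06 (95% confidence interval -0.27 to 0.39, limma adjusted p = 0.92). With salt the gene was higher in Lmyb36-2 than in WT, at 118 ± 11.995 against 85.9 ± 17.5 FPKM, a log2 difference of 0.47 (limma adjusted p = 0.0048). In that comparison 3 of 20 shoot genes were lower (15% of the list, below the 25.1% of all genes called). Against Lmyb36-1, at 86.7 ± 2.89 FPKM with salt, the difference in Lmyb36-2 was 0.44 (95% confidence interval 0.21 to 0.67, limma adjusted p = 0.056). It did not pass the threshold. That comparison called 0 of the 3 ferritin genes and 1.74% of all genes. Control plants averaged 141 ± 2.89 FPKM in Lmyb36-1, 135 ± 4.81 FPKM in Lmyb36-2 and 144 ± 4.96 FPKM in WT. The log2 difference from WT in control plants was -0.03 in Lmyb36-1 (95% confidence interval -0.26 to 0.20). In Lmyb36-2 it was -0.09 (-0.33 to 0.14). The 4.73-fold size seen for LotjaGi3g1v0197600 lies far outside both intervals.

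By mean, LotjaGi6g1v0079000 ran from WT control down through Lmyb36-1 control, Lmyb36-2 control, Lmyb36-2 salt and Lmyb36-1 salt to WT salt. Of the neighbours in that order, Lmyb36-2 control and Lmyb36-1 control did not overlap in their libraries, nor did Lmyb36-2 salt and Lmyb36-1 salt. Neither pair passed the threshold.

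LotjaGi1g1v0074300, the gene described as Ferritin-2, was the lowest of the 3 in every library and fell with salt in both lines. Lmyb36-1 had 45.4, 43.04 and 44.2 FPKM with salt, against 62.8, 70.2 and 69.9 FPKM in control plants. Lmyb36-2 had 37.9, 46.6 and 43.9 FPKM with salt, against 63.4, 63.5 and 69.2 FPKM in control plants. WT had 51.6, 56.9 and 49.9 FPKM with salt, against 50.8, 61.0 and 54.3 FPKM in control plants. Salt and control libraries were fully apart in each line and overlapped in WT. The salt effect was -0.61 in Lmyb36-1 (limma adjusted p = 0.000499), -0.61 in Lmyb36-2 (limma adjusted p = 0.00131) and -0.07 in WT (95% confidence interval -0.26 to 0.13, limma adjusted p = 0.74). Within the first and the last columns it was -0.50 and -0.66 in Lmyb36-1, -0.63 and -0.57 in Lmyb36-2, and 0.02 and -0.24 in WT.

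The salt effect on LotjaGi1g1v0074300 in Lmyb36-1 minus that in WT was -0.54 (limma adjusted p = 0.0256), and in Lmyb36-2 minus WT it was -0.54 (limma adjusted p = 0.0151). The first of these calls was lost when any of 6 of the 12 libraries was left out, with adjusted p up to 0.0837 without WT salt replicate 2. Within the first and the last columns the value was -0.52 and -0.42 for Lmyb36-1, and -0.65 and -0.33 for Lmyb36-2.

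Set against WT, LotjaGi1g1v0074300 averaged 67.7 ± 4.19 FPKM in Lmyb36-1 and 65.4 ± 3.36 FPKM in Lmyb36-2 without NaCl, and 55.4 ± 5.23 FPKM in WT. These differences of 0.29 and 0.24 did not pass the threshold (limma adjusted p = 0.056 and 0.11). The first passed when Lmyb36-1 control replicate 1 (0.34, limma adjusted p = 0.0425) or WT control replicate 2 (0.36, limma adjusted p = 0.0293) was left out. With salt the gene averaged 44.2 ± 1.203 FPKM in Lmyb36-1, 42.8 ± 4.47 FPKM in Lmyb36-2 and 52.8 ± 3.62 FPKM in WT. It was lower in Lmyb36-2 than in WT by a log2 difference of -0.30 (limma adjusted p = 0.0249). That call was lost without Lmyb36-2 salt replicate 1 (-0.22, limma adjusted p = 0.112) or without WT salt replicate 2 (-0.25, limma adjusted p = 0.109). For Lmyb36-1 the difference of -0.25 did not pass (limma adjusted p = 0.0823). The order of means was Lmyb36-1 control, Lmyb36-2 control, WT control, WT salt, Lmyb36-1 salt and Lmyb36-2 salt, the same as for LotjaGi3g1v0197600. In it only Lmyb36-2 control and WT control, and WT salt and Lmyb36-1 salt, had libraries that did not overlap.

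The 2 lines were close to each other in control plants. There 0 of the 3 ferritin genes and 0.147% of all genes were called between Lmyb36-2 and Lmyb36-1. The log2 difference, Lmyb36-2 over Lmyb36-1, was -0.01 for LotjaGi3g1v0197600 (95% confidence interval -0.43 to 0.41), -0.06 for LotjaGi6g1v0079000 (-0.30 to 0.17) and -0.05 for LotjaGi1g1v0074300 (-0.25 to 0.15). With salt it was -0.08 for LotjaGi3g1v0197600 (-0.50 to 0.34) and -0.05 for LotjaGi1g1v0074300 (-0.25 to 0.15).

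Summed over the 3 genes, ferritin transcript levels stood at 265 ± 31.8 FPKM with salt and 1181 ± 42.9 FPKM in control plants of Lmyb36-1. The sums were 286 ± 39.2 FPKM with salt and 1171 ± 106 FPKM in control plants of Lmyb36-2, and 306 ± 21.2 FPKM with salt and 407 ± 45.7 FPKM in control plants of WT. Salt libraries lay below control libraries in every genotype with no overlap, and the sum was not tested. LotjaGi3g1v0197600 made up 82.3 ± 0.179% of the sum in Lmyb36-1 control and 82.9 ± 0.926% in Lmyb36-2 control, against 50.8 ± 4.05% in WT control. With salt its share was 50.1 ± 6.65% in Lmyb36-1, 43.6 ± 2.75% in Lmyb36-2 and 54.2 ± 8.46% in WT. With salt LotjaGi6g1v0079000 took 41.4 ± 2.32% in Lmyb36-2, and its libraries there were close in share to those of LotjaGi3g1v0197600. The share of LotjaGi1g1v0074300 stayed between 5.41% and 5.94% in the control libraries of the lines and between 12.8% and 19.8% in all other libraries.

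**Figure D3:**
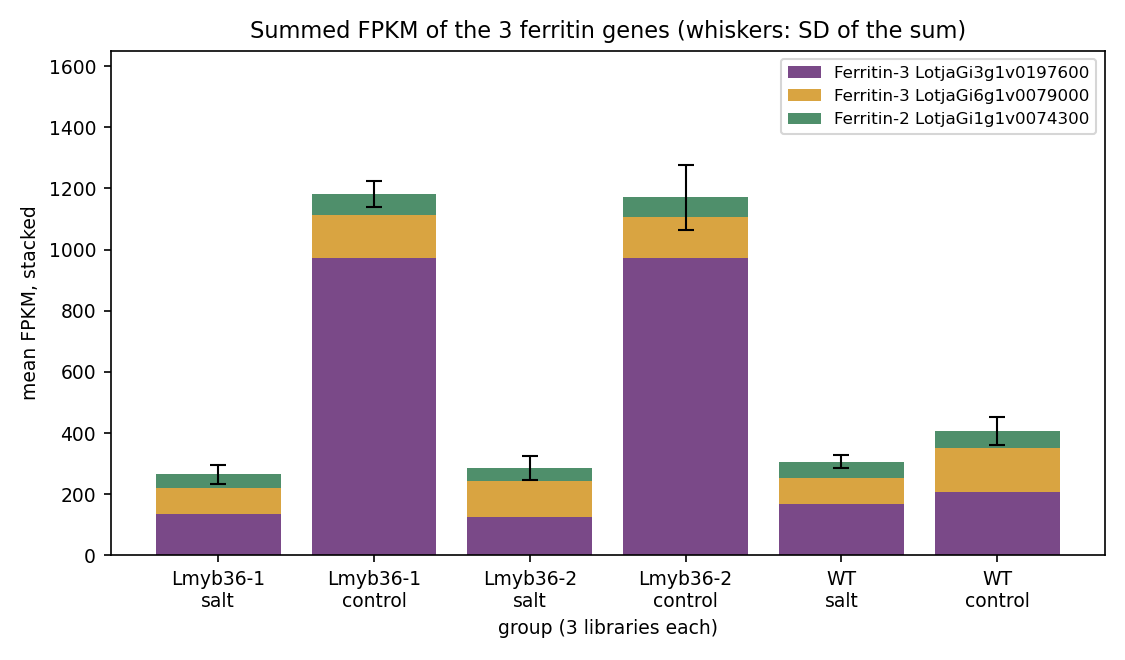
Mean FPKM of the 3 ferritin genes, stacked (vertical axis, from 0), in each group of 3 libraries, with the SD of the sum as whiskers. The stacked bars reach 1181 and 1171 FPKM in the control groups of Lmyb36-1 and Lmyb36-2, mostly LotjaGi3g1v0197600, and between 265 and 407 FPKM in the other 4 groups.

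Across the 18 libraries, log2(FPKM + 0.5) of LotjaGi3g1v0197600 and LotjaGi1g1v0074300 had a Pearson correlation of 0.896, and either of them with LotjaGi6g1v0079000 of 0.579 and 0.542. These are descriptions over libraries that share group means. For deviations from the group means the values were 0.493, -0.174 and 0.012 for the same pairs.

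Other genes of iron handling were counted by lists of descriptions. The list of transport, chelation and reduction held 66 genes, of which 41 were tested. It includes 15 genes described as zinc transporters, 10 of them tested, from a family whose members also carry iron. With salt, 3 rose and 2 fell in Lmyb36-1, 5 rose and 2 fell in Lmyb36-2, and 1 rose and 5 fell in WT. These are 12.2%, 17.1% and 14.6% of the list, beside 8.61%, 8.66% and 16.3% of all genes, so the WT share is near that of all genes. In control plants 4 were higher and 2 lower in Lmyb36-1 than in WT, and 4 higher and 3 lower in Lmyb36-2 than in WT (14.6% and 17.1% of the list, beside 11.7% and 12.6% of all genes). The medians of the list in these comparisons lay between -0.02 and 0.10, beside medians of all genes between -0.01 and 0.01. Between the lines and WT with salt, 5 were higher and 2 lower in Lmyb36-1, and 6 higher and 1 lower in Lmyb36-2. That is 17.1% of the list in each, beside 16.0% and 25.1% of all genes. The 4 genes counted as higher in control plants of each line include Vacuolar iron transporter homolog 4 (LotjaGi6g1v0356300). So do the 2 counted as falling with salt in Lmyb36-2. That gene passed the filter through the lines, so its place in these counts carries no test. The counts and shares for control plants and for salt in Lmyb36-2 rest in part on it. FRO7 (Ferric reduction oxidase 7, LotjaGi6g1v0277600), in Arabidopsis the ferric reductase that serves iron uptake into chloroplasts, rose with salt in every genotype. It averaged 159 FPKM with salt and 118 FPKM in control plants of Lmyb36-1, 141 and 99.0 FPKM in Lmyb36-2, and 219 and 83.0 FPKM in WT. The log2 differences were 0.42, 0.51 and 1.40 (limma adjusted p = 0.019, 0.00765 and 6.40e-08). The call in Lmyb36-1 was lost without Lmyb36-1 salt replicate 1 (0.34, limma adjusted p = 0.0994) or Lmyb36-1 control replicate 3. The rise was smaller in Lmyb36-1 than in WT by 0.98 and in Lmyb36-2 than in WT by 0.89 on the log2 scale (salt effects of the lines minus that of WT of -0.98 and -0.89, limma adjusted p = 0.000598 and 0.000961). YSL8 (LotjaGi2g1v0179400, a metal-nicotianamine transporter by description) was higher with salt in Lmyb36-1 (7.69 FPKM) and in Lmyb36-2 (5.36 FPKM) than in WT (1.98 FPKM), by 1.72 and 1.24 (limma adjusted p = 1.04e-06 and 3.05e-05). In control plants YSL8 averaged 5.29 FPKM in Lmyb36-1 and 5.98 FPKM in Lmyb36-2, against 3.34 FPKM in WT. Its call in Lmyb36-1 control plants was lost when any of 4 of its 6 libraries was left out.

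Of the regulators of iron uptake, 9 of 15 were tested. BRUTUS (LotjaGi4g1v0453800), in Arabidopsis an iron-binding ubiquitin ligase that restrains the response to iron deficiency, averaged 4.49 FPKM in Lmyb36-1 and 3.12 FPKM in Lmyb36-2 with salt, against 6.98 FPKM in WT. The log2 differences were -0.58 and -1.05 (limma adjusted p = 0.00139 and 2.77e-06). The transcription factor bHLH104 (LotjaGi6g1v0006200), known in Arabidopsis as an activator of the iron deficiency response, was higher in control plants of Lmyb36-1 (18.1 FPKM) and Lmyb36-2 (17.98 FPKM) than of WT (13.2 FPKM), by 0.44 in both (limma adjusted p = 0.0245 and 0.0243). The first call was lost when any of 4 of its 6 libraries was left out, and the second when any of 5 was. In control plants 1 regulator was higher and 1 lower in Lmyb36-1 than in WT (22.2% of the list, beside 11.7% of all genes). In Lmyb36-2 against WT 1 was higher and 0 lower (11.1% of the list, near the 12.6% of all genes). With salt, 0 regulators were called in WT or in Lmyb36-1 (beside 16.3% and 8.61% of all genes). In Lmyb36-2 1 fell (11.1% of the list, beside 8.66% of all genes). Against WT with salt, 1 was higher and 1 lower in Lmyb36-1, and 0 were higher and 1 lower in Lmyb36-2. These are 22.2% and 11.1% of the list, beside 16.0% and 25.1% of all genes.

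Of 16 genes of iron-sulfur cluster assembly, 2 rose with salt in WT and 1 in each line, and none of the 16 fell in these comparisons. The shares were 6.25% in each line and 12.5% in WT, all below those of all genes (8.61%, 8.66% and 16.3%). Against WT with salt, 1 was higher and 1 lower in Lmyb36-1, and 2 were higher and 1 lower in Lmyb36-2. These are 12.5% and 18.8% of the list, below the 16.0% and 25.1% of all genes. Frataxin (LotjaGi1g1v0649700), which serves iron-sulfur cluster assembly in mitochondria, was lower with salt in Lmyb36-1 than in WT by -0.57 and in Lmyb36-2 than in WT by -0.48 (limma adjusted p = 0.0172 and 0.0307). Iron-sulfur cluster assembly protein 1 (LotjaGi1g1v0179700) was higher with salt in Lmyb36-1 and in Lmyb36-2 than in WT, by 0.54 and 0.58 (limma adjusted p = 0.0282 and 0.0132). Each of these calls of frataxin and of Iron-sulfur cluster assembly protein 1 was lost when any of 2 to 4 of its 6 libraries was left out, WT salt replicate 2 among them every time. In control plants Iron-sulfur cluster assembly protein 1 averaged 42.4 FPKM in Lmyb36-1 and 37.4 FPKM in Lmyb36-2, against 29.2 FPKM in WT. Its call in Lmyb36-1 control plants was lost when any of 4 of its 6 libraries was left out. The 5 ferredoxins, iron-sulfur proteins of electron transport, included 0 called with salt in any genotype and 0 called between the lines and WT in control plants. Of all genes, 8.61%, 8.66% and 16.3% were called with salt in Lmyb36-1, Lmyb36-2 and WT. Between the lines and WT in control plants 11.7% and 12.6% of all genes were called. At these shares a count of 0 among 5 genes does not set the ferredoxins apart from all genes. With salt 2 ferredoxins were higher in Lmyb36-1 than in WT and 1 in Lmyb36-2 (16.0% and 25.1% of all genes were called there). Among them were Ferredoxin-3 LotjaGi3g1v0477000 (0.32 and 0.33, limma adjusted p = 0.0468 and 0.0290) and Ferredoxin-3 LotjaGi1g1v0765600 in Lmyb36-1 (0.37, limma adjusted p = 0.0329). These ferredoxin calls were lost when any of 2 to 5 of their 6 libraries was left out, with adjusted p up to 0.231 for LotjaGi3g1v0477000 in Lmyb36-1 without WT salt replicate 2.

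Among 13 tested superoxide dismutases, catalases and ascorbate peroxidases, which remove reactive oxygen, 2 rose with salt in Lmyb36-1, 3 in Lmyb36-2 and 1 in WT, and 0 fell. These are 15.4%, 23.1% and 7.69% of the list, beside 8.61%, 8.66% and 16.3% of all genes, so the WT share is below that of all genes. Catalase-4 (LotjaGi1g1v0436200) rose in all genotypes, by 0.50, 0.44 and 0.71 (limma adjusted p = 0.000405, 0.00255 and 2.62e-06). The chloroplast iron superoxide dismutase LotjaGi6g1v0192100 was lower with salt in Lmyb36-1 and Lmyb36-2 than in WT, by -0.34 and -0.52 (limma adjusted p = 0.0291 and 0.00134). The call in Lmyb36-1 was lost when any of 5 of its 6 libraries was left out. Of the 13 genes, 0 were higher and 1 lower with salt in Lmyb36-1 than in WT, and 1 was higher and 1 lower in Lmyb36-2. These are 7.69% and 15.4% of the list, below the 16.0% and 25.1% of all genes.

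The next 3 genes of the transport list were chosen after their values were seen. Vacuolar iron transporter homolog 4 (LotjaGi6g1v0356300) averaged 4.49 ± 1.06 FPKM in Lmyb36-1 and 5.73 ± 1.67 FPKM in Lmyb36-2 control plants, against 0.535 ± 0.399 FPKM in WT. No WT control library reached the 1 FPKM that the filter asks of 3 libraries, so the gene was tested because of its level in the lines. No test of it is given, though it is counted in the transport list. With salt it averaged 1.63 ± 0.313 FPKM in Lmyb36-1, 1.18 ± 0.770 FPKM in Lmyb36-2 and 0.791 ± 0.693 FPKM in WT. Its salt and control libraries did not overlap in either line and did in WT. Oligopeptide transporter 3 (LotjaGi4g1v0006400), which in Arabidopsis loads iron into the phloem, went the other way. It was lower in control plants of Lmyb36-1 (28.3 ± 0.725 FPKM) and Lmyb36-2 (27.6 ± 0.364 FPKM) than of WT (37.4 ± 4.10 FPKM), the first not past the threshold without WT control replicate 1 (limma adjusted p = 0.06), and it rose with salt by 0.74 in Lmyb36-1 and 0.76 in Lmyb36-2 (limma adjusted p = 7.03e-05 and 0.000241). A gene described as Zinc transporter 3 (LotjaGi6g1v0028300) rose with salt in Lmyb36-1 and Lmyb36-2, by 0.68 and 0.53, and fell in WT, by -1.27 (limma adjusted p = 0.00738, 0.0367 and 7.65e-06). The call in Lmyb36-2 was lost when any of its 6 libraries was left out.

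Arabidopsis ferritin genes are known to answer to phosphate supply and to the circadian clock as well as to iron, so genes of both were counted. Of 28 genes of phosphate sensing and transport, 21 were tested. In control plants 5 were higher and 0 lower in Lmyb36-1 than in WT, and 5 higher and 0 lower in Lmyb36-2 than in WT, with list medians of 0.11 and 0.16. That is 23.8% of the list in each, beside 11.7% and 12.6% of all genes. With salt, 2 rose and 6 fell in Lmyb36-1, 2 rose and 4 fell in Lmyb36-2, and 3 rose and 9 fell in WT (38.1%, 28.6% and 57.1% of the list, beside 8.61%, 8.66% and 16.3% of all genes). Named after their values were seen, the 5 genes higher in control plants of both lines were SPX1, SPX2 and SPX3, whose Arabidopsis namesakes sense phosphate supply, and 2 phosphate transporters. SPX domain-containing protein 1 (LotjaGi4g1v0270900) had 133 ± 23.7 FPKM in Lmyb36-1 and 98.3 ± 8.18 FPKM in Lmyb36-2, against 45.1 ± 13.7 FPKM in WT, differences of 1.59 and 1.16 (limma adjusted p = 0.000135 and 0.0021). SPX domain-containing protein 2 (LotjaGi1g1v0199500) was higher by 1.22 and 0.80, SPX domain-containing protein 3 (LotjaGi3g1v0206000) by 1.63 and 1.26, and the transporter LotjaGi4g1v0084800 by 1.70 and 1.86. The transporter LotjaGi6g1v0025100 averaged 2.15 FPKM in Lmyb36-1 and 2.72 FPKM in Lmyb36-2, against 0.181 FPKM in WT. It reached 1 FPKM in no WT library and so passed the filter only through the lines, and no test of it is given, though it is 1 of the 5 counted. For SPX2 and SPX3 the call in Lmyb36-2 was lost when any of 5 of its 6 libraries was left out, and for SPX3 that in Lmyb36-1 without Lmyb36-1 control replicate 2 or WT control replicate 3. The other 4 genes were also higher in both lines than in WT with salt, by 1.18 to 4.05 on the log2 scale. The phosphate transporters LotjaGi1g1v0709800 and LotjaGi5g1v0185300 were higher with salt in Lmyb36-1 (2.02 and 1.96) and in Lmyb36-2 (2.07 and 2.01) than in WT.

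Of 22 clock genes, 2 rose and 7 fell with salt in Lmyb36-1, 1 rose and 0 fell in Lmyb36-2, and 1 rose and 11 fell in WT. These are 40.9%, 4.55% and 54.5% of the list, beside 8.61%, 8.66% and 16.3% of all genes, so the Lmyb36-2 share is below that of all genes. The medians were -0.23, 0.02 and -0.37, beside 0.01 over all genes in each. Of the ferritin genes, LotjaGi6g1v0079000 fell in Lmyb36-1 and WT and did not pass in Lmyb36-2. LotjaGi3g1v0197600 and LotjaGi1g1v0074300 fell in both lines and did not pass in WT. REVEILLE 6 (LotjaGi5g1v0296400), a MYB-like clock factor, averaged 3.09 FPKM with salt and 26.5 FPKM in control plants of Lmyb36-1, 12.9 and 20.2 FPKM in Lmyb36-2, and 1.61 and 44.4 FPKM in WT. The log2 differences were -2.95, -0.64 and -4.47 (limma adjusted p = 9.83e-07, 0.10 and 1.74e-09). APRR1 (LotjaGi4g1v0251000), named TOC1 in Arabidopsis, changed by -1.11, -0.01 and -2.35 in the same order (limma adjusted p = 0.00015, 0.97 and 1.26e-08). All plants were harvested at the same time of day, per the labels, and whether clock phase had a part in the ferritin values was not tested.

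**Figure D4:**
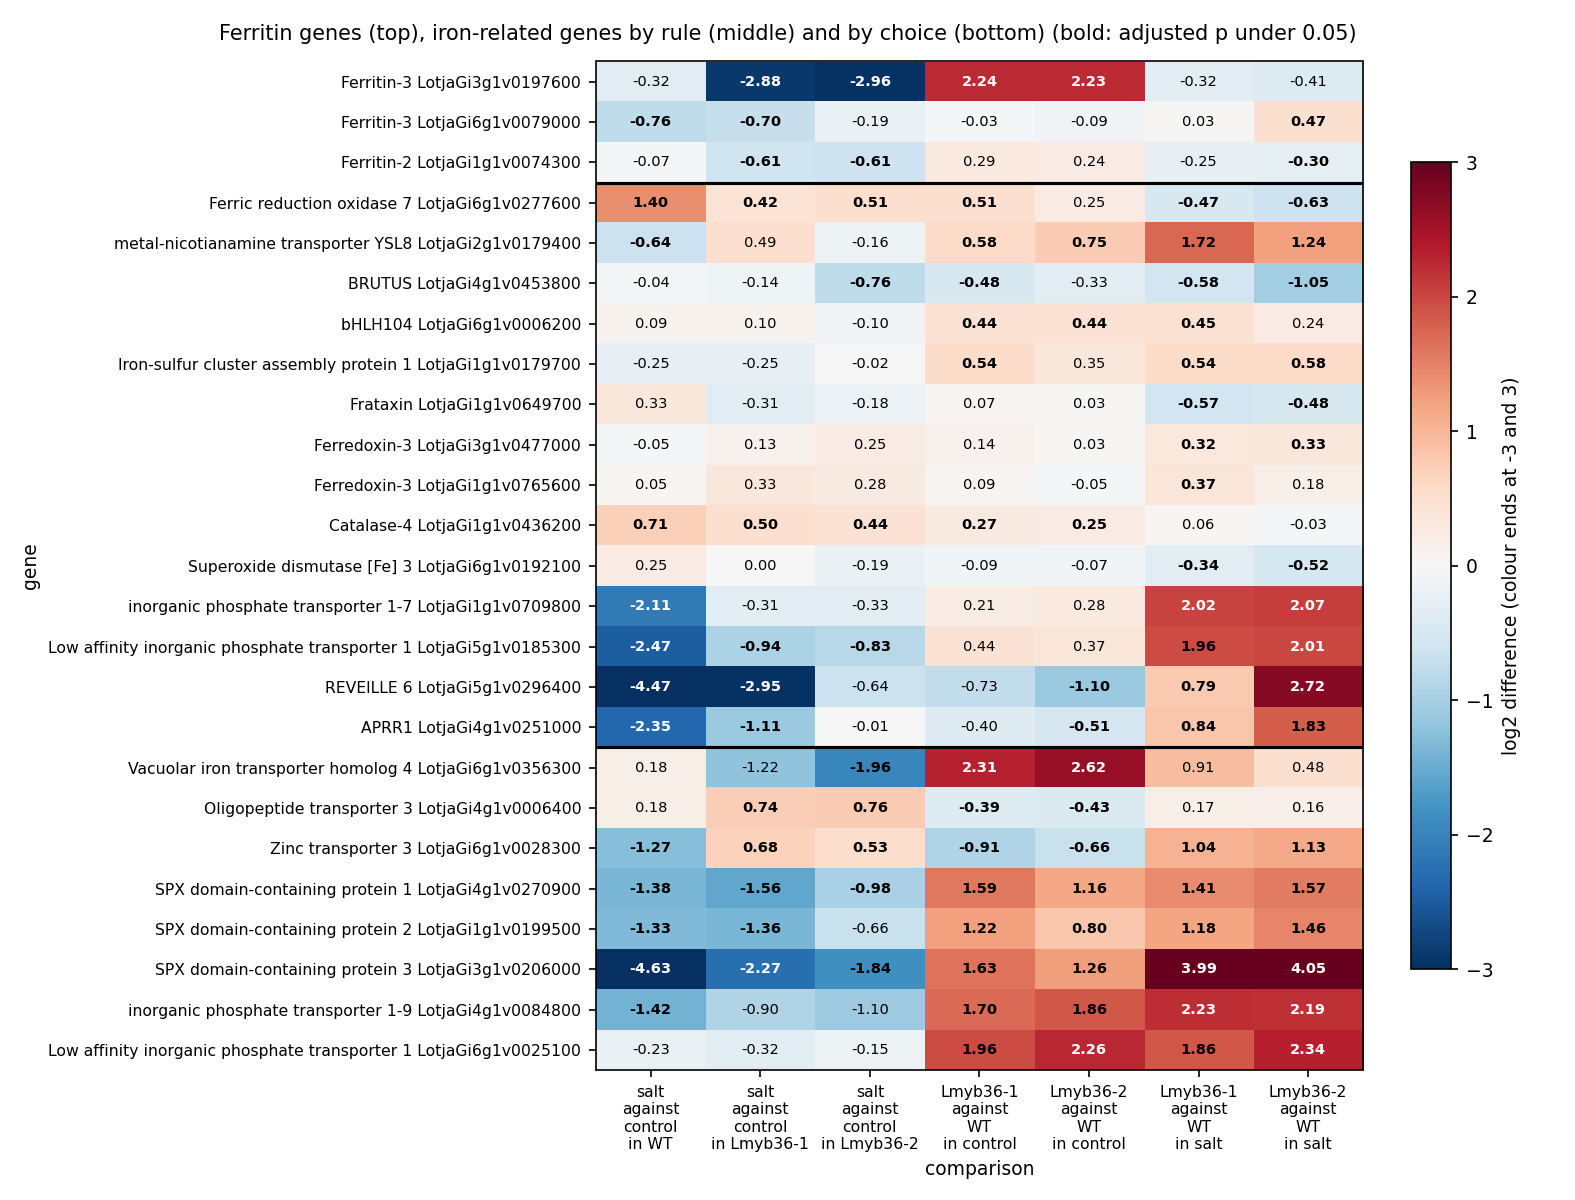
Log2 differences (numbers and colours, colour ends at -3 and 3) in 7 comparisons (columns) of the ferritin genes (top), of the 2 genes with the smallest adjusted p in each list (middle) and of genes chosen after their values were seen (bottom). Bold numbers have a limma adjusted p under 0.05. In the columns for the lines against WT in control, LotjaGi3g1v0197600 stands at 2.24 and 2.23. Vacuolar iron transporter homolog 4 and the transporter LotjaGi6g1v0025100 passed the filter through the lines, so bold type carries no test for them.

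For each ferritin gene the 5 described genes whose log2(FPKM + 0.5) had the highest Pearson correlation with it were looked up among 9566 candidates (mean FPKM 5 or more). These correlations are over 18 libraries that share their groups and normalization, and they are descriptions. For LotjaGi3g1v0197600 they were a yippee-like protein (LotjaGi1g1v0078000, 0.922), a riboflavin kinase/FMN phosphatase (LotjaGi3g1v0450700, 0.912), Endonuclease 2 (LotjaGi2g1v0276000, 0.906), a 1,4-alpha-glucan-branching enzyme (LotjaGi1g1v0436100, 0.902) and a dormancy-associated protein (LotjaGi3g1v0410800, 0.900). Their changes with salt in the lines, and between the lines and WT in control plants, were smaller than those of the ferritin gene. In WT the riboflavin kinase/FMN phosphatase gene averaged 5.21 FPKM with salt and 8.26 FPKM in control plants. The dormancy-associated gene averaged 8.02 and 12.3 FPKM there. Relative to control, both fell more in WT than the ferritin gene did. The yippee-like gene averaged 5.79 FPKM with salt and 11.5 FPKM in control plants of Lmyb36-1, 5.56 and 10.2 FPKM in Lmyb36-2, and 4.87 and 5.87 FPKM in WT.

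The nearest genes to LotjaGi6g1v0079000 had correlations between 0.956 and 0.974. They were ABC transporter E family member 2 (LotjaGi4g1v0022200_LC), the phosphoglucan phosphatase DSP4 of starch breakdown (LotjaGi5g1v0264500), CHLOROPLAST IMPORT APPARATUS 2 (LotjaGi1g1v0115200), Thiamine thiazole synthase 2 of vitamin B1 synthesis (LotjaGi5g1v0317600) and a putative ubiquitin ligase, XBAT31 (LotjaGi3g1v0282800). Thiamine thiazole synthase 2 averaged 731 FPKM with salt and 1732 FPKM in control plants of Lmyb36-1, 1282 and 1577 FPKM in Lmyb36-2, and 746 and 1987 FPKM in WT. Like the ferritin gene, it was closest to its control level in Lmyb36-2, a likeness that its choice by correlation brings with it. For LotjaGi1g1v0074300 the correlations lay between 0.848 and 0.916, and the nearest gene was a methionine synthase by description (5-methyltetrahydropteroyltriglutamate--homocysteine methyltransferase 1, LotjaGi6g1v0193300). The riboflavin kinase/FMN phosphatase gene LotjaGi3g1v0450700 was among the nearest 5 for both LotjaGi3g1v0197600 and LotjaGi1g1v0074300.

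**Figure D5:**
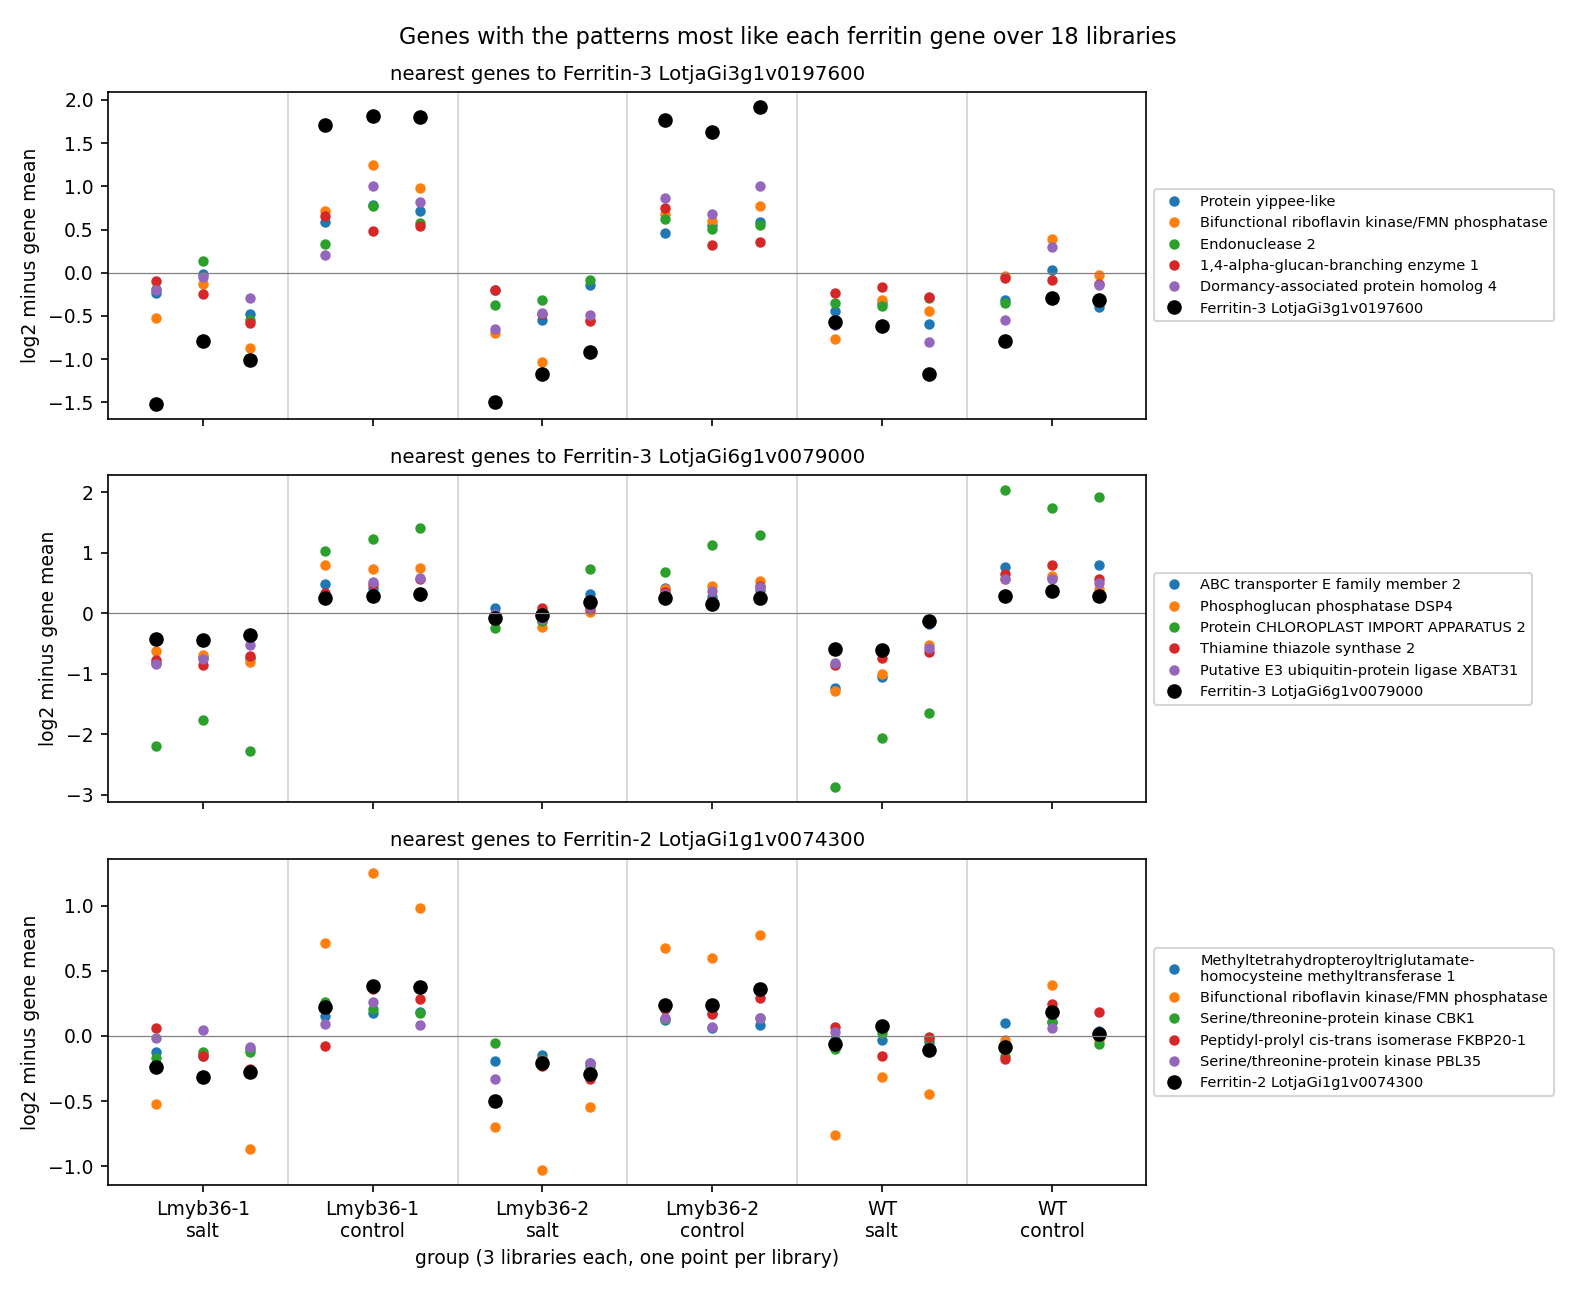
Log2(FPKM + 0.5) minus the gene's own mean over 18 libraries (vertical axis) for each ferritin gene (black) and the 5 genes with the most similar pattern (colours), by group, with 1 point per library. In the top panel the control libraries of Lmyb36-1 and Lmyb36-2 stand above all others for LotjaGi3g1v0197600, and in the middle panel the salt libraries of Lmyb36-1 and WT are lowest for most genes.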

How the data were processed

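Poly(A) RNA of shoots was sequenced in 18 dUTP libraries, per the labels' protocols. The authors deposited FPKM values per gene. Reads were processed with fastp, featureCounts 1.5.0-p3 and DESeq2 1.20.0, per the submitters' processing notes. Aligner, genome build and strand setting: not given in the sources used here. Multiplied by length and divided by a unit fitted in each library, 100.0% of the deposited FPKM values above 0 came out as whole reads to within 0.05. FPKM values are relative within a library.

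The 20433 genes that reached 1 FPKM in 3 or more libraries entered a fit of log2(FPKM + 0.5) by limma 3.58.1 (R 4.3.3; eBayes, trend) over 6 group means and 12 residual degrees of freedom. Tests were two-sided and Benjamini-Hochberg adjusted within a comparison at 0.05. The log2(FPKM + 0.5) scale understates changes of low genes. Alternatives were pseudocounts of 0.1 and 1, omission of the filter, a filter at mean FPKM 5, rescaling by median ratios, quantile normalization, only the compared groups, a replicate block, voom on recovered reads, library sets as a term, and leaving out each library. Library sets came from the first principal component of deviations from group means. Its sign, the split listed first, put 9 libraries on each side. The cut by column order (10 and 8 libraries), which moves 1 library, was placed after the scores were seen and is used for the values within sets. That cut, those values and the recomputation for genes other than ferritins were chosen after seeing the data.

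Named genes are the 3 ferritins, from each list the 2 described genes whose adjusted p was lowest over the 7 comparisons of salt or line, and the 5 nearest in pattern. Genes chosen after their values were seen are marked as such. The 3 genes, the lists and the rule were chosen with earlier results of these data known. No sequence of the genes was used here, and 0 of the 3 identifiers matched the RefSeq gene table.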

Additional observations from a re-analysis of the deposited data

Results flagged for a closer look

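The salt effect of a line differed from that of WT by a test of the difference itself in 5 results. For LotjaGi3g1v0197600 the salt effect in Lmyb36-1 minus that in WT was -2.56, and in Lmyb36-2 minus WT it was -2.64 (limma adjusted p = 2.76e-05 and 1.43e-05). All 3 salt libraries of each line lay below all 3 control libraries, while those of WT overlapped. For LotjaGi1g1v0074300 the values were -0.54 for Lmyb36-1 and -0.54 for Lmyb36-2 (limma adjusted p = 0.0256 and 0.0151). For LotjaGi6g1v0079000 the value for Lmyb36-2 was 0.56 (limma adjusted p = 0.031), the opposite sign. This last call was lost when any of 8 of the 12 libraries was left out. The call of LotjaGi1g1v0074300 for Lmyb36-1 was lost when any of 6 of its 12 libraries was left out.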

How the results depend on the processing

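The 3 genes gave 33 differences, 15 of them called. Over 597 recomputations 556 stayed on their side of the threshold, 21 lost a call, 20 gained one and 0 reversed. Of the called differences, those of LotjaGi3g1v0197600 held in all recomputations. For LotjaGi6g1v0079000 the salt effect in Lmyb36-2 minus WT lost its call with quantile normalization (0.45), only the compared groups (0.56) and voom on recovered reads (0.50), and ranged from 0.48 to 0.72 with 1 library left out. With only the compared groups, Lmyb36-2 against WT in salt lost its call for LotjaGi6g1v0079000 (0.47) and LotjaGi1g1v0074300 (-0.30, and -0.37 to -0.22 with 1 library left out). For LotjaGi1g1v0074300 the salt effect in Lmyb36-1 minus WT ranged from -0.61 to -0.48 with 1 library left out. The cause was not tested.

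Calls were gained for LotjaGi1g1v0074300 in Lmyb36-1 against WT in control with a mean FPKM of at least 5 (0.29), voom (0.29) and the library set as a term (0.29 by the sign of the component, 0.25 by column order), with 0.23 to 0.36 when 1 library was left out. In Lmyb36-2 against WT in control they were gained with voom (0.31) and the library set (0.27 and 0.24), and in Lmyb36-1 against WT in salt with quantile normalization (-0.33), voom (-0.28) and the library set (-0.28 and -0.29). For LotjaGi6g1v0079000 in Lmyb36-2 against Lmyb36-1 in salt they were gained with a mean FPKM of at least 5 (0.44), voom (0.47) and the library set (0.42 and 0.43). Both splits gave the same calls for the 3 genes. For LotjaGi3g1v0197600, Lmyb36-2 against WT in salt ranged from -0.60 to -0.26.

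No pairing of same-numbered replicates was seen: 10 of 27 pairs correlated above 0.1 (-0.315 to 0.479), and the own number was the best match in 32 of 90 cases. The component that parts the table's columns also enters these correlations, so the check cannot exclude pairing. With a replicate block, the differences for LotjaGi1g1v0074300 in Lmyb36-1 against WT in control (0.29) and LotjaGi6g1v0079000 in Lmyb36-2 against Lmyb36-1 in salt (0.44) were called, and no count of called genes moved by over 1.5 times.

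Counts of called genes over the whole table moved by over 1.5 times in some settings. They ranged from 749 to 2545 (1760 as reported) for salt in Lmyb36-1, 696 to 3076 (1770) for salt in Lmyb36-2, 1416 to 3311 (2386) and 1685 to 4230 (2570) for Lmyb36-1 and Lmyb36-2 against WT in control, 2004 to 3870 (3267) and 3327 to 6421 (5125) in salt, and 8 to 41 (30) and 40 to 589 (355) for Lmyb36-2 against Lmyb36-1 in control and salt, and the count for the salt effect in Lmyb36-2 minus WT reached 2827 (1759) with the set by sign. Leaving out 1 library gave the lowest count for salt in Lmyb36-2 (Lmyb36-2 control replicate 3) and for Lmyb36-1 (Lmyb36-1 control replicate 2) and Lmyb36-2 (WT control replicate 3) against WT in control. The share of calls that rose was 37.3% and 21.4% with voom for salt in Lmyb36-1 and Lmyb36-2 (48.6% and 48.9% as reported), 71.3% for Lmyb36-2 against WT in control (57.4%), and, with quantile normalization, 52.1%, 49.9% and 44.8% for Lmyb36-1 against WT in control and salt and Lmyb36-2 against WT in salt (63.1%, 70.2% and 59.4%). With a mean FPKM of at least 5 it was 63.3% for salt in Lmyb36-2 and 12.5% for Lmyb36-2 against Lmyb36-1 in control (43.3% as reported). For the 22 other named genes, 116 called differences kept their call in 1905 of 2072 recomputations, lost it in 167 and reversed in 0. Of 770 list counts recomputed, 683 stayed within 1.5 times and 87 did not. Among those printed, salt in Lmyb36-1 gave 5 up and 4 down in the transport list with either library set, and Lmyb36-2 against WT in control 8 up with the set by sign. For iron-sulfur assembly 0 rose with salt in either line with no filter. Of the ferredoxins 1 rose with salt in each line with the set by column order. Of the phosphate genes 3 were higher in Lmyb36-2 than in WT in control with no filter, and of the clock genes 3 rose and 1 fell with salt in Lmyb36-2 with either set. Other printed counts that moved did so by 1 or 2 genes.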
